A study of Mus musculus with 20 samples.

Results

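The comparison described here set CD4 single-positive (CD4SP) thymocytes that lacked Id2 and Id3 against T follicular helper (TFH) cells of the spleen. Genes entered it where the larger of the averages of these groups reached 10 normalized counts. This rule kept 14644 of the 39179 genes in the deposited table, and 14427 of them had a gene symbol. Just inside the limit lay Fut9, at 10.0 and 4.41 normalized counts in Id2-/-Id3-/- CD4SP and TFH cells, and Ptafr, at 10.0 and 8.02. Just outside lay Prickle2, at 9.9955 and 7.19, and Ranbp17, at 9.32 and 9.9984.

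The thymic group held 3 libraries of cells sorted as CD4+TCRb+CD8- from mice aged 8 wk with the genotype Id2fl/flId3fl/flIL7RCre, in which Cre recombinase is driven from the IL7R locus and both genes are lost early in lymphoid development. The other group held 3 libraries of CD4+TCRb+CD44highCXCR5+ cells from spleens of wild-type mice that had been immunized with sheep red blood cells, whose age was not stated. The study also sequenced 5 libraries of control CD4SP cells, labelled wild type but called Id3 heterozygous or littermate controls in the study's text and legends, and these stand beside the results as the level of the control thymus. It held 3 libraries labelled Id3 KO and 6 of Id2-/-Id3-/- lymphomas as well. All mice were on the C57BL/6 background. Tissue, genotype, immunization and the markers used for sorting differed together between the groups compared, so the part of each in a difference cannot be told apart.

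E proteins are basic helix-loop-helix transcription factors that bind DNA at E-box sites and guide T cell development. Id2 and Id3 lack a DNA-binding region and hold E proteins in dimers that cannot bind, so their loss frees E protein activity. TFH cells are CD4 T cells that enter B cell follicles through the chemokine receptor CXCR5, depend on the repressor BCL6 and help germinal center B cells with IL-21, IL-4 and CD40 ligand. Innate-type T cells, such as natural killer T (NKT) cells, are marked by the zinc finger factor PLZF, the product of Zbtb16, and acquire effector properties within the thymus.

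The table gives 1 average of normalized counts per group and no value per library. The averages therefore carry no error, no test could be made for this pair, and every difference below is a description of the averages without a replicate check. The depth of the libraries is unknown. The log2 ratio of a gene is that of the Id2-/-Id3-/- CD4SP average over the TFH average, with 1 normalized count added to both, so a positive value is higher in the thymic cells and changes of low genes are understated. A gene is counted as higher in a group at a ratio of 2-fold or more on this scale. A gene under 10 in the lower group passed the filter only through the higher one, which fixed its direction. Counts of listed genes that rest on such genes are no separate support. Because the sorted cells were measured in bulk, a lower average may reflect fewer cells that hold a transcript or less of it per cell, and these cannot be told apart.

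The targeted genes were checked first. Id2 averaged 6.82 normalized counts in Id2-/-Id3-/- CD4SP cells against 1628 in TFH cells and 2293 in control CD4SP cells, a log2 ratio of -7.70. Id3 averaged 879.7, 1777 and 1991 in the same order, a log2 ratio of -1.01, so that a transcript of the gene remained in the averages of the deleted cells. A gene-level average does not tell which exons the reads came from. The E protein genes Tcf3 and Tcf12, whose products Id2 and Id3 hold, lay within 2-fold, at log2 ratios of -0.16 and -0.09. Tcf4, another E protein gene, averaged 42.7 in Id2-/-Id3-/- cells, 128 in TFH cells and 252 in control cells.

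The labelled cell types were checked against their markers. Of 14 genes of the alpha-beta TCR complex and its proximal signaling, 13 lay within 2-fold, with Cd3e, Lck and Zap70 at log2 ratios of -0.01, 0.07 and -0.13. The other was Cd4, on which both groups were sorted, at 6565 normalized counts in Id2-/-Id3-/- CD4SP cells, 20145 in TFH cells and 15039 in control CD4SP cells. Cd8a, the coreceptor gene of the cells that the thymic sort left out, averaged 19.2, 26.1 and 128 in the same order. The TFH group held its defining genes Cxcr5, Bcl6 and Il21 at 9568, 3543 and 1551 normalized counts.

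Most genes lay at like levels in both populations. Of the 14644 genes, 2221 (15.2%) were 2-fold or more higher in Id2-/-Id3-/- CD4SP cells, 1935 (13.2%) were 2-fold or more higher in TFH cells, and 10488 (71.6%) lay within 2-fold. The counts of each gene list below are to be read beside these shares. At 4-fold or more, 883 genes (6.03%) were higher in the thymic cells and 658 (4.49%) in TFH cells. The median log2 ratio was 0.0028, and the central 90% of genes lay between a log2 ratio of -1.90 and 2.27. The average was listed at 0 in TFH cells for 63 genes and in Id2-/-Id3-/- CD4SP cells for 41.

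**Figure D1:**
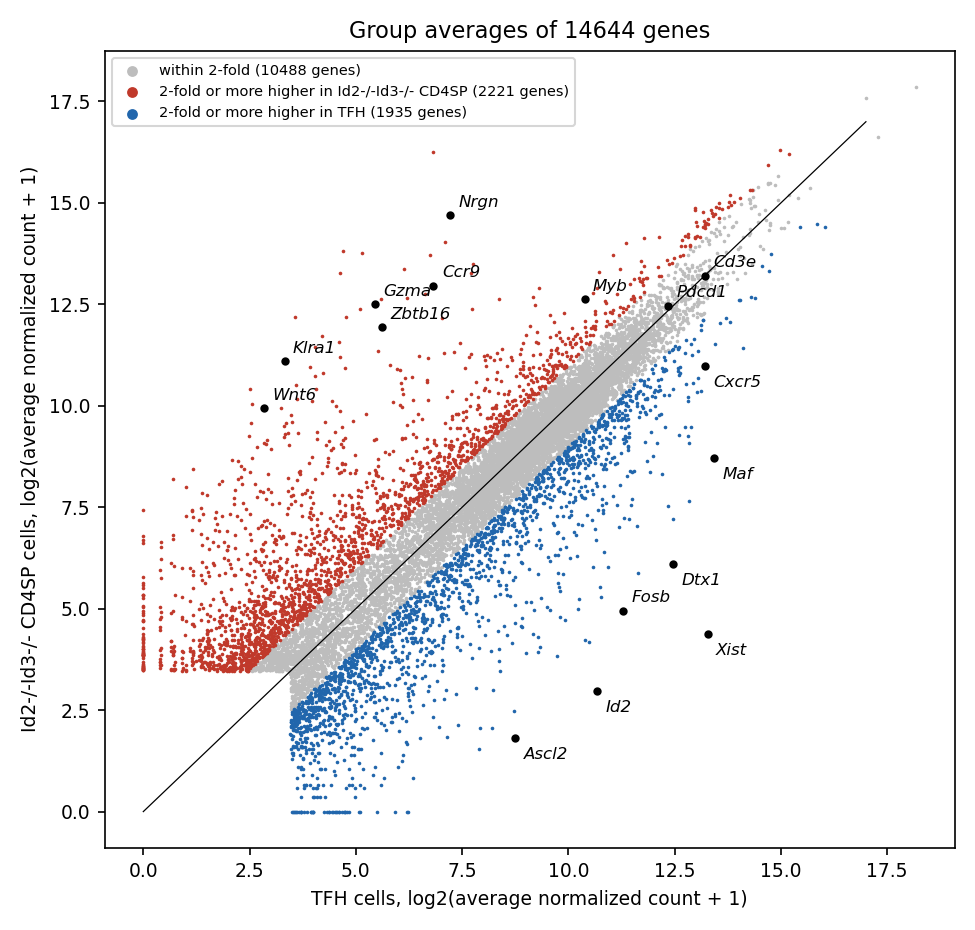
Group averages of the 14644 genes on a log2 scale, with TFH cells on the horizontal axis and Id2-/-Id3-/- CD4SP cells on the vertical axis, each after adding 1 normalized count. Each point is 1 gene, red where it was 2-fold or more higher in the thymic cells (2221 genes), blue where it was 2-fold or more higher in TFH cells (1935 genes), and the line marks equal averages. Pdcd1 and Cd3e lie on the line while Gzma and Zbtb16 lie far above it and Ascl2 and Id2 far below.

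The control CD4SP average placed these differences against the control thymus. Of the 883 genes that were 4-fold or more higher in Id2-/-Id3-/- CD4SP cells, the control average lay within 2-fold of TFH cells for 382, within 2-fold of the Id2-/-Id3-/- cells for 211, and between both for 209. It lay below both for 58 and above both for 23. Of the 658 genes that were 4-fold or more higher in TFH cells, the control average lay within 2-fold of the Id2-/-Id3-/- cells for 306, within 2-fold of TFH cells for 159 and between both for 97. For 85 it lay below both, and for 11 above both. The granzyme gene Gzma, at 5809 normalized counts in Id2-/-Id3-/- cells, 42.9 in TFH cells and 25.2 in control cells, was 1 of the 382, whereas Ccr9, which guides thymocytes and gut-homing T cells, was high in both thymic groups, at 7963 and 5827 against 112 in TFH cells.

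Several features of the whole table differed between the groups. Xist, the RNA of the inactive X chromosome, averaged 19.7 normalized counts in Id2-/-Id3-/- CD4SP cells against 9909 in TFH cells and 10461 in control CD4SP cells, while the Y-linked Ddx3y, Uty and Eif2s3y were each 2-fold or more higher in the Id2-/-Id3-/- cells than in TFH cells. Genes of the X chromosome had a median log2 ratio of 0.01. A set of 9 gene models that share from 50% to 88.7% of their 21-base words with each other, chosen after their values were seen, held 0.796% of all normalized counts in Id2-/-Id3-/- CD4SP cells and 0.00151% in TFH cells, against 0.458% in control cells and 0.0052% in the libraries labelled Id3 KO. Coding genes were split into 5 equal groups by summed exon length. Those of the shortest group leaned to the thymic cells, with a median log2 ratio of 0.23, and those of the longest to TFH cells, with a median of -0.19. The part of sex and of library preparation in the results was not tested. With group averages alone, neither can be told apart from the other differences between the groups.

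Apart from TCR and immunoglobulin segments, pseudogenes and unnamed gene models, of which the repeat-like models given above and Tcrg-V1 had ratios of this size, the 15 genes with the largest ratios in favor of Id2-/-Id3-/- CD4SP cells included NK receptors, a granzyme, a WNT ligand and proteins best known from neurons. Klra1, an inhibitory NK receptor of the Ly49 family, averaged 2194 normalized counts in Id2-/-Id3-/- CD4SP cells, 9.01 in TFH cells and 22.04 in control CD4SP cells, and its relative Klra9 averaged 613, 4.62 and 64.3 in the same order. The Ly49 genes are close copies of each other and can share reads. Gzma, the granule protease granzyme A, averaged 5809 against 42.9 in TFH cells, a 132-fold difference. Nos1, the neuronal nitric oxide synthase, averaged 3361 against 17.4, and Nrgn, which encodes the calmodulin-binding protein neurogranin, averaged 26461 against 148. In control CD4SP cells they averaged 28.1 and 926.

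The WNT ligand Wnt6 averaged 981 in Id2-/-Id3-/- CD4SP cells and 6.15 in TFH cells, and the secreted glycoprotein gene Cthrc1 averaged 347 and 1.26. Kcnf1, a modifier subunit of voltage-gated potassium channels, averaged 5309.8 and 33.1, and Slc22a3, an organic cation transporter, averaged 1464 and 11.2. Cntnap1, a contactin-associated protein of axons, averaged 13400.5 and 107, and the scaffold gene Homer2 averaged 1980.5 and 14.1. Lgals7, which encodes galectin-7, Prss23, a secreted serine protease, Parm1, a mucin-like membrane protein, and Gpr25, an orphan receptor, differed by 126, 129, 103 and 96.0-fold. In the Id2-/-Id3-/- lymphomas Cthrc1 and Klra9 averaged 5.37 and 1.27 normalized counts, while the other 13 of the 15 genes averaged 90.0 or more.

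By the same choice the 15 genes with the largest ratios in favor of TFH cells were Xist, 1 of the deleted genes and a mixture of transcriptional regulators, signaling genes and peptides. Ascl2, a basic helix-loop-helix factor that directs TFH cells toward CXCR5 expression, averaged 429 normalized counts in TFH cells against 2.52 in the Id2-/-Id3-/- thymocytes and 2.60 in control CD4SP cells. Dtx1, the Deltex gene of the NOTCH pathway, averaged 5615 in TFH cells against 67.7 in the Id2-/-Id3-/- thymocytes and 1649.9 in control cells, so that the Id2-/-Id3-/- average was the lowest of these groups. Fosb, an AP-1 subunit that is induced within minutes of stimulation, averaged 2498 against 29.9. Gadd45b, a stress-induced signaling gene, averaged 1747 against 38.0, and Cxcl10, a chemokine induced by interferon, averaged 647 against 15.5. Gal, which encodes the neuropeptide galanin, averaged 294 against 3.20, and the granzyme gene Gzmk averaged 169 against 3.43. Dapl1, Fam43a, the efflux pump gene Abcc3, the ribonuclease gene Rnase4 and the smooth muscle gene Smtn were 80.8, 72.4, 59.3, 58.5 and 54.3-fold higher in TFH cells.

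E proteins recognize the E-box, of which CAGCTG and CAGGTG are common forms. These letters, and CACCTG, which is CAGGTG read on the other strand, were searched in the 250 bases before the start of each gene in the RefSeq promoters of build GRCm38.p6. CAGCTG reads the same on both strands, and by their letters none of these forms can overlap another. Of all 27025 genes with a promoter, 27.4% held at least 1 of these forms in this window and 5.09% held 2 or more. A promoter was matched to 13 of the 15 leading genes of the thymic cells and to 14 of the 15 of TFH cells, and 5 and 4 of these held a form. For all genes past 4-fold, 59.2% and 59.8% were matched to a promoter, so a share over those genes would be void and is not given. The promoters of a leading pair from each side that hold CAGGTG are printed from 5′ to 3′ on the strand of the gene, with the E-box letters in capitals, to show where these letters stand.
Gzma (chr13:113100982-113101231, minus strand): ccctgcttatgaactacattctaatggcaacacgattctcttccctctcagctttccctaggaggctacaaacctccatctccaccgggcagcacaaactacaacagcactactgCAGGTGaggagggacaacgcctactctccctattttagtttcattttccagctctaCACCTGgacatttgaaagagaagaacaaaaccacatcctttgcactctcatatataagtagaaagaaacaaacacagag
Slc22a3 (chr17:12507705-12507954, minus strand): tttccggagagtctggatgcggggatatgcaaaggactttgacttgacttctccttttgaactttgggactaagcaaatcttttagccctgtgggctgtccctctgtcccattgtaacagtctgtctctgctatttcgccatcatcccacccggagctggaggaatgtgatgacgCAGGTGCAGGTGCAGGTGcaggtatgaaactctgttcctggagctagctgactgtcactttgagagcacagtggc
Fosb (chr7:19310046-19310295, minus strand): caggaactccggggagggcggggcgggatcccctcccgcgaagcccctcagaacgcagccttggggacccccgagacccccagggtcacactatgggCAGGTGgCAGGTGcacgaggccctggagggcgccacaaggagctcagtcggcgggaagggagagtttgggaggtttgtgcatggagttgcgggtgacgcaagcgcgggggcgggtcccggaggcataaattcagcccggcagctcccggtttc
Ascl2 (chr7:142969265-142969514, minus strand): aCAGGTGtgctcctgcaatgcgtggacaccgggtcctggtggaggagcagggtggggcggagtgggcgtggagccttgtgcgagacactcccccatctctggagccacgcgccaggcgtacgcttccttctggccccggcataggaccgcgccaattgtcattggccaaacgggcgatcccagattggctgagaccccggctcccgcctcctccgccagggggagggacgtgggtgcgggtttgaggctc
The Gzma window held CAGGTG once on each strand, the Slc22a3 window held 3 copies in a row, the Fosb window held 2 copies with 1 base between them and the Ascl2 window held 1 copy. A count of 3 or more was found in 0.847% of all promoters. The printed thymic pair held the most copies of CAGGTG among the leading genes of that side. Nos1 of the thymic side and Cd22 of the TFH side, with 1 copy each, are not printed. The match of letters is a description and does not show that a site was bound.

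Transcription factor genes listed for TFH cells were mostly higher in those cells. Of 16 such factors, 11 were 2-fold or more higher in TFH cells and 1 in Id2-/-Id3-/- CD4SP cells, with a median log2 ratio of -1.49 against 0.0028 over all genes. The 11 include Prdm1, whose product BLIMP1 opposes BCL6 and does not direct TFH cells. It averaged 32.1 normalized counts in Id2-/-Id3-/- CD4SP cells and 128 in TFH cells. Bcl6, the repressor on which TFH cells depend, averaged 549 normalized counts in Id2-/-Id3-/- CD4SP cells, 3543 in TFH cells and 529.9 in control CD4SP cells, so the Id2-/-Id3-/- and control averages stood together. Maf, which drives IL-21 and IL-4 expression, averaged 417, 11057 and 188 in the same order. Cebpa, better known from myeloid cells, averaged 45.6, 1716 and 6.49.

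Other TFH factors took intermediate or unlike positions. Tox2, an HMG-box factor of TFH cells, averaged 1185 in Id2-/-Id3-/- cells, between 134 in control CD4SP cells and 7173 in TFH cells. Pou2af1, a coactivator of octamer-binding factors, averaged 192 against 1883 in TFH cells. Tcf7, which encodes TCF-1 and acts early in TFH cells, was 27949 in TFH cells and 27336 in control cells, and 13671 in the Id2-/-Id3-/- cells. Its relative Lef1 was the exception of the list, at 17844 in Id2-/-Id3-/- cells against 3500.2 in TFH cells (log2 ratio 2.35). Tox and Stat3 differed little, at log2 ratios of -0.05 and -0.34, and Batf lay close to the 2-fold limit at -1.01.

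The surface molecules and cytokines of TFH cells divided into those at like levels and those that were lower in the thymic cells. Of 19 genes, 12 were 2-fold or more higher in TFH cells, 0 were 2-fold or more higher in Id2-/-Id3-/- CD4SP cells and the median log2 ratio was -1.58. Pdcd1, which encodes the inhibitory receptor PD-1, averaged 5668 in Id2-/-Id3-/- CD4SP cells, 5192 in TFH cells and 448 in control cells. The costimulatory receptor gene Icos averaged 4006 and 3621 in the groups compared, and Cxcr4, the receptor that retains cells in the dark zone of germinal centers, averaged 3377 and 2633. Slamf6 and Cd200 lay at log2 ratios of -0.39 and -0.21.

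The genes of follicular homing and help were lower in the thymic cells than in TFH cells. Cxcr5, on which TFH cells were sorted, averaged 2006 in Id2-/-Id3-/- CD4SP cells, 9568 in TFH cells and 44.6 in control CD4SP cells. Il21, the cytokine that drives germinal center B cells, averaged 419.6, 1551 and 109, and Il4 averaged 178, 415 and 16.8. For these 3 genes the Id2-/-Id3-/- average lay above control. Cd40lg, which licenses B cells, averaged 826, 2471 and 1203. Il6ra, a receptor for a cytokine that induces TFH cells, averaged 335 in the Id2-/-Id3-/- cells, below both TFH (2994) and control cells (1375). Sostdc1, which marks part of the TFH population, averaged 186 against 2269 in TFH cells and 3.01 in control cells.

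**Figure D2:**
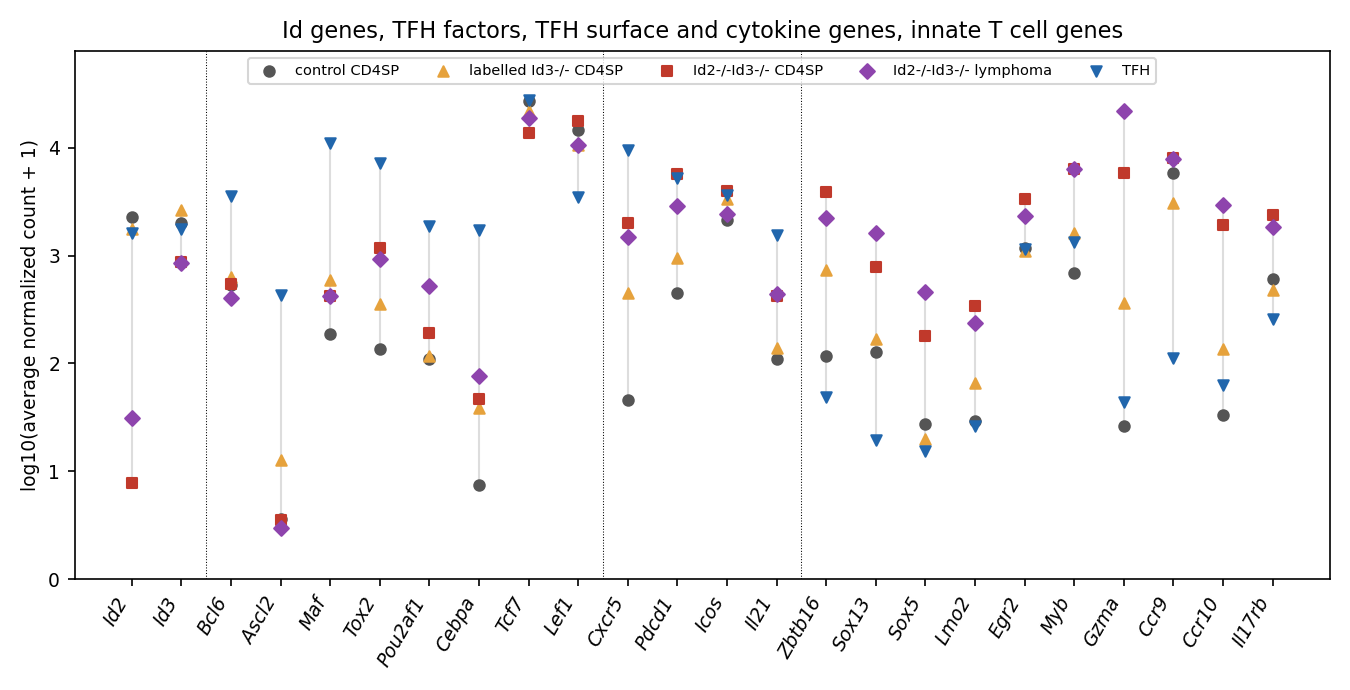
Average normalized counts, as log10 after adding 1, of 24 genes in the 5 groups. Columns run from the Id genes through TFH transcription factors and TFH surface and cytokine genes to genes of innate-type T cells, and each symbol is 1 group average with no error. Maf averaged 11057 in TFH cells and 417 in Id2-/-Id3-/- CD4SP cells, while Zbtb16 averaged 48.2 and 3912.

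Innate-type genes showed the reverse arrangement for the regulators of the PLZF program but not for the factors of type 1 and cytotoxic cells. Of 22 listed genes, 12 were 2-fold or more higher in Id2-/-Id3-/- CD4SP cells and 8 in TFH cells, with a median log2 ratio of 1.41. Zbtb16 averaged 3912 normalized counts in Id2-/-Id3-/- CD4SP cells, 48.2 in TFH cells and 116 in control CD4SP cells. Sox13, an HMG-box factor of gamma-delta T cells, averaged 778 against 18.4 in TFH cells, and Sox5 averaged 179 against 14.4. Lmo2, a bridging factor that is shut off as T cells mature, averaged 342 against 25.4. Myb, which NKT cell precursors require, averaged 6351 against 1333, and Egr2, which induces Zbtb16 in NKT cells, averaged 3379 against 1145.

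Receptors on the list differed in both directions. Ccr10, a skin and mucosal homing receptor, averaged 1911 in Id2-/-Id3-/- CD4SP cells and 61.9 in TFH cells, and the IL-25 receptor chain gene Il17rb averaged 2379.8 and 256. Hdc, the enzyme that makes histamine, averaged 1949.7 and 25.7. The receptor genes Il18rap, Cd160 and Slamf1 were higher in TFH cells, at log2 ratios of -3.17, -2.10 and -1.54. Tbx21, which encodes the type 1 factor T-bet, averaged 22.5 in Id2-/-Id3-/- cells and 480.0 in TFH cells. Runx3, a factor of cytotoxic T cells, averaged 118 in Id2-/-Id3-/- cells, 1123 in TFH cells and 1154 in control CD4SP cells. Rora, a nuclear receptor of innate lymphoid cells, averaged 106 and 944, and the cytotoxic factor gene Eomes averaged 138 and 486.

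Cytotoxic genes also differed in both directions. Of 12 granzyme and granule genes, 2 were higher in Id2-/-Id3-/- CD4SP cells, 5 were higher in TFH cells and the median log2 ratio was -0.47. The thymic pair was Gzma and Ctsw, a cathepsin of cytotoxic cells, which averaged 1611 against 269 in TFH cells but 1549.9 in control cells. Gzmb averaged 0.78 in the Id2-/-Id3-/- cells against 49.4 in TFH cells, Nkg7, a granule membrane gene, averaged 89.2 against 646, and Prf1, the pore-forming perforin, averaged 31.1 against 42.8. Of 12 NK receptor and adaptor genes, 3 were higher in the thymic cells, namely Klra1, Klra7 and Fcer1g, and 7 in TFH cells, with a median log2 ratio of -2.15. All of the thymic genes were under 10 in TFH cells, and Klrb1f, Klrc1, Klrc2 and Klrk1 were under 10 in the thymic cells. So were Gzmb, Gzmc, Gzmk and Gzmm of the granule list. Each passed the filter only through its higher average, which fixed its direction, so the counts and medians of both lists are no separate support. Fcer1g, the gamma chain that pairs with Fc receptors and some NK receptors, averaged 269 in Id2-/-Id3-/- CD4SP cells, 5.20 in TFH cells and 8.23 in control cells.

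Transcripts of the TCR gamma locus were higher in the thymic cells. The locus had 11 genes that passed the filter and each of them was 4-fold or more higher in Id2-/-Id3-/- CD4SP cells. A gene under 10 in TFH cells passed only through its thymic average, which fixed its direction, so this count is no separate support. The summed average was 3478 normalized counts, against 65.7 in TFH cells and 161 in control CD4SP cells. Tcrg-C4, a constant gene, averaged 1717 against 15.3 in TFH cells, and Tcrg-V1, a variable gene, averaged 292 against 0.63. Tcrg-C1 and Tcrg-C2, which are close copies and can share reads, averaged 519 and 561 in the Id2-/-Id3-/- cells. The delta variable gene Trdv2-2 went the other way, at 2.01 against 13.0. The cells of both groups had been sorted as TCRb+, and Trbc1, Trbc2 and Trac, the constant genes of the alpha-beta receptor, lay at log2 ratios of -0.38, -0.14 and -0.45. The Tcrg-C1 and Tcrg-C2 values also stand in a list of 13 NK and gamma-delta T cell markers. Only 6 of these passed the filter, and 5 of the 6 were higher in the thymic cells. Any of them under 10 in TFH cells passed only through its thymic average. The summed level of those 6 was 7809 normalized counts in Id2-/-Id3-/- CD4SP cells, 321 in TFH cells and 266 in control cells. Gzma made up 5809, 42.9 and 25.2 of these sums. Ncr1, an NK receptor gene that did not pass the filter, was listed at 0 in the Id2-/-Id3-/- cells and averaged 2.07 in TFH cells. The part of NK or gamma-delta T cells in these values was not tested.

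Genes of immature thymocytes were mostly higher in the thymic cells, and the genes that mark mature quiescent T cells were mostly lower. Of 14 immature thymocyte genes, 8 were higher in Id2-/-Id3-/- CD4SP cells and 3 in TFH cells, with a median log2 ratio of 2.64. Dntt, the template-free DNA polymerase of receptor rearrangement, averaged 219.8 against 10.1 in TFH cells and 326 in control CD4SP cells. Sox4 averaged 2011 against 268 and 4769.8, and Satb1, a chromatin organizer of thymocytes, averaged 10139 against 1686 and 28784. For these genes the control thymocytes lay above the Id2-/-Id3-/- cells. Arpp21 and Tdgf1 averaged 252 and 89.2 in Id2-/-Id3-/- cells against 10.3 and 11.6 in TFH cells.

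Of 23 genes of thymic egress, the naive state and quiescence, 13 were higher in TFH cells and 2, Lef1 and Satb1, in Id2-/-Id3-/- CD4SP cells. Foxo1, which maintains the naive state, averaged 843 in Id2-/-Id3-/- CD4SP cells, 3225 in TFH cells and 4103 in control CD4SP cells. Il7r, the receptor chain for the survival cytokine IL-7, averaged 311, 1538 and 3997 in the same order. Klf3 averaged 219.9, 2112 and 809, and Foxp1, which restrains TFH differentiation, averaged 1211, 3103 and 4343. S1pr1, which directs exit from the thymus, had a log2 ratio of -1.14. Klf2, Ccr7 and Bach2 lay within 2-fold, at log2 ratios of 0.28, 0.44 and 0.32, and Bach2 averaged 591 and 473 against 4082 in control cells. Tsc22d3, a glucocorticoid-induced inhibitor of activation, averaged 103, 1607 and 2437, and of 12 glucocorticoid response genes 6 were higher in TFH cells and 1, Klf9, in the thymic cells.

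Of 22 genes that mark antigen experience, 11 were higher in TFH cells, 3 were higher in Id2-/-Id3-/- CD4SP cells and 8 lay within 2-fold. Cd44, on which TFH cells were sorted, averaged 896 in the thymic cells and 4627 in TFH cells. Itgb1 and Itga4, the subunits of the integrin VLA-4, averaged 1289 and 621 in the thymic cells against 8397 and 6200.1 in TFH cells. S100a4 and Ly6a averaged 56.5 and 398 against 936 and 3683. The exceptions were Ly6c2, Lgals3 and Ly6c1, and Ly6c2 averaged 6375 against 328. Ly6c1 and Ly6c2 are near-identical genes whose reads can be split. Anxa2, an annexin of activated cells, averaged 1729 and 1728, and 367 in control CD4SP cells.

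Effector cytokine genes were mostly higher in TFH cells. Of 20 cytokine genes that passed the filter, 17 were higher in TFH cells and 2, Csf1 and Il13, in Id2-/-Id3-/- CD4SP cells, with a median log2 ratio of -1.74. Among the 17, Il2, Il10, Areg, Ccl3 and Ccl4 were under 10 in the thymic cells, and Il13 was under 10 in TFH cells. These genes passed only through their higher average, which fixed their direction, so they add no separate support to the counts. Ifng, the type 1 effector cytokine, averaged 15.0 in Id2-/-Id3-/- CD4SP cells and 328 in TFH cells, and Il10, an inhibitory cytokine, averaged 1.36 and 66.9. Ccl5, a chemokine of memory cells, averaged 30.4 and 583, and Tnfsf11, which encodes RANK ligand, averaged 261 and 1622. Tnf averaged 204 and 1143. Csf1, the macrophage growth factor, averaged 988 in Id2-/-Id3-/- CD4SP cells, 294 in TFH cells and 18.2 in control CD4SP cells.

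Of 28 cytokine receptor chains, 13 were higher in TFH cells, 13 lay within 2-fold and 2, Il17rb and Il20rb, were higher in the thymic cells. Il10ra averaged 42.2 against 889.6 in TFH cells, Il1r1 averaged 10.0 against 337, and Il9r averaged 57.8 against 866. Il2rg, the common gamma chain, and Il21r lay within 2-fold, at log2 ratios of 0.19 and 0.66. Downstream, 18 of 22 JAK, STAT and SOCS genes lay within 2-fold. Stat4, which relays IL-12, averaged 151 against 2529, Socs3, a feedback inhibitor of IL-6 signaling, averaged 133 against 1281, and Jak2 averaged 1348 against 4204. Socs1 was the gene of the list that was higher in the thymic cells, at a log2 ratio of 1.02.

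Of 18 chemokine and lysophospholipid receptors, 9 were higher in TFH cells and 3 in Id2-/-Id3-/- CD4SP cells. Cxcr3, a receptor of type 1 cells, averaged 83.5 against 1843 in TFH cells, Gpr183, an oxysterol receptor that guides cells to the follicle edge, averaged 327 against 2907, and S1pr2, which confines cells to germinal centers, averaged 210.0 against 1334. On the thymic side Ccr9 averaged 7963 against 112 in TFH cells and 5827 in control CD4SP cells, together with Ccr10 and Ccr2. Among 17 integrin subunits, 8 were higher in TFH cells and 2 in the thymic cells, namely Itgb3, at 2226 against 303, and Itgam, at 181 against 28.9.

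Of 25 checkpoint and costimulatory receptor genes, some of which also stand on the TFH surface list, 12 were higher in TFH cells and 1, Tnfrsf9, in Id2-/-Id3-/- CD4SP cells. Ctla4, an inhibitory receptor of activated and regulatory T cells, averaged 208 against 2877 in TFH cells. Tigit averaged 308 against 2646, Lag3 averaged 207 against 1761, and Cd226, an activating partner of TIGIT, averaged 35.2 against 515. Tnfrsf9, which encodes 4-1BB, averaged 2477 against 769. Cd28, Cd27, Cd5 and Cd2 lay within 2-fold at log2 ratios of 0.43, -0.04, 0.22 and 0.34. Of 9 SLAM receptor and adaptor genes, 4 were higher in TFH cells, among them Cd48 and Fyn, and Slamf9 alone was higher in the thymic cells, at 33.6 against 1.55. Of 28 TNF superfamily genes, 14 were higher in TFH cells, led by the ligand gene Tnfsf8 (262 against 2359), and 4 were higher in the thymic cells, led by Tnfsf4 (27.8 against 6.55).

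**Figure D3:**
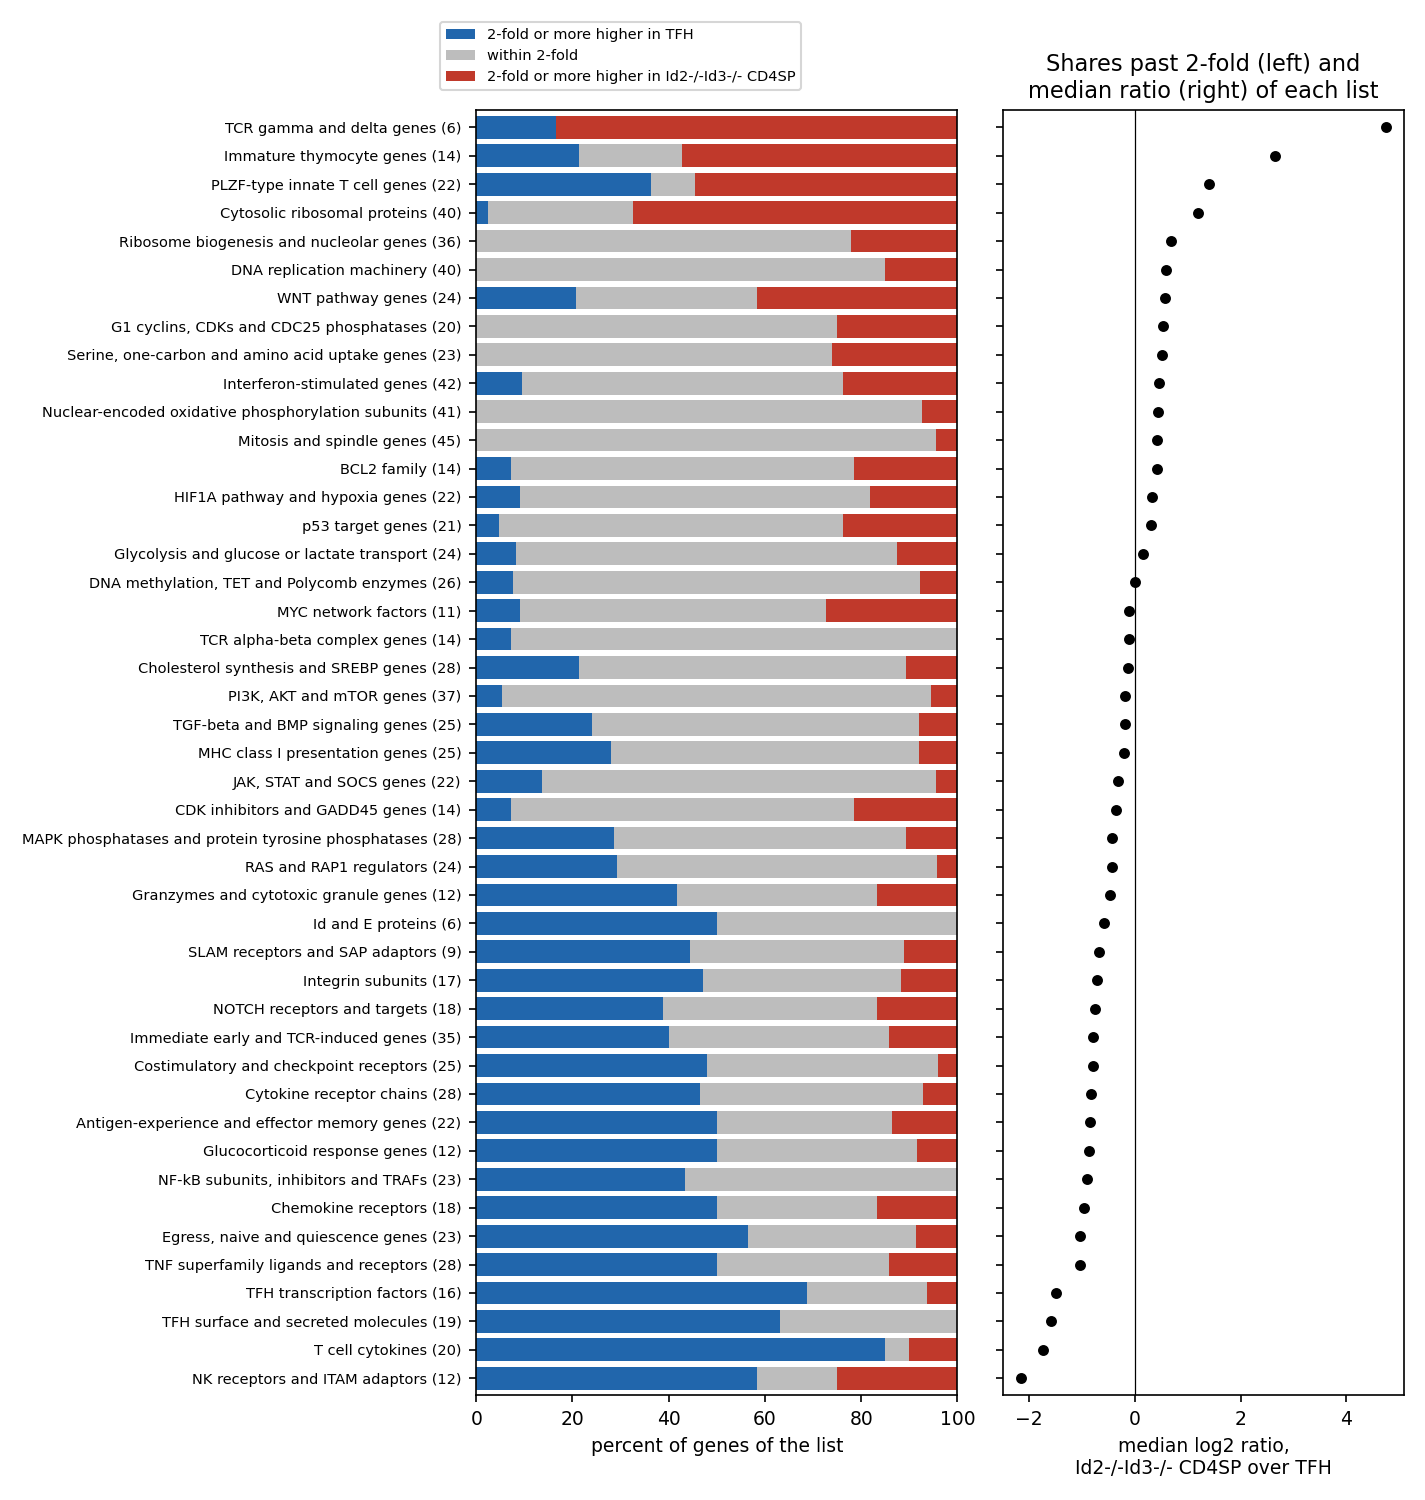
Share of each gene list, leaving out the marker lists of other cells and lists of under 6 genes, that was 2-fold or more higher in TFH cells (blue), within 2-fold (grey) or 2-fold or more higher in Id2-/-Id3-/- CD4SP cells (red), in percent, with the median log2 ratio of the list on the right axis and its number of genes in brackets. Lists are ordered by the median, from TCR gamma and delta genes at 4.74 to NK receptors at -2.15, against 0.0028 for all genes. Both of these lists hold genes that passed the filter through a single group, which fixed their direction.

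Immediate early genes differed in both directions. Of 35 immediate early and TCR-induced genes, 14 were higher in TFH cells and 5 in Id2-/-Id3-/- CD4SP cells, against 13.2% and 15.2% of all genes. Only the TFH count stood above its share, and the thymic count was near its own. AP-1 genes leaned to TFH cells, with Fos at 200.3 against 7306, Jun at 437 against 4101 and Junb at 2749 against 17752. Other AP-1 members, Jund, Fosl1 and Fosl2, lay within 2-fold, at log2 ratios of 0.07, 0.26 and -0.53. The phosphatase gene Dusp1 averaged 541 against 7311. The thymic side held the EGR genes Egr1, Egr2 and Egr4, at log2 ratios of 1.06, 1.56 and 2.55, and the RAS pathway inhibitors Spry2, at 144 against 6.53, and Spred1. The orphan receptor gene Nr4a1, which tracks TCR signal strength, averaged 1604 and 1585 against 5274 in control CD4SP cells. Early response genes can also be induced while tissue is processed and cells are sorted, and the part of handling in these values was not tested.

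NF-kB genes were higher in TFH cells where they differed. Of 23 subunits, inhibitors and TRAF adaptors, 10 were higher in TFH cells, 0 were higher in Id2-/-Id3-/- CD4SP cells and the median log2 ratio was -0.91. Tnfaip3, the inhibitor A20, averaged 713 in Id2-/-Id3-/- CD4SP cells and 6820.0 in TFH cells, the adaptor gene Traf1 averaged 516 and 2699, and the atypical inhibitor gene Nfkbiz averaged 538 and 2522. Nfkb1 and Relb had log2 ratios of -1.05 and -1.37, while Rela and Traf6 lay at -0.40 and 0.00.

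The PI3K list was mostly even, while more genes of the phosphatase and RAS lists passed 2-fold. Of 37 PI3K, AKT and mTOR genes, 33 lay within 2-fold, and Akt1 and Mtor lay at log2 ratios of -0.01 and -0.06. Rps6ka2, a ribosomal S6 kinase, averaged 2336 in Id2-/-Id3-/- CD4SP cells, 102 in TFH cells and 125 in control CD4SP cells. The phosphatase gene Phlpp2, an AKT antagonist, averaged 89.0 against 291, and Pik3r3, a PI3K regulatory subunit, averaged 107 against 34.6. Among 28 phosphatases, 8 were higher in TFH cells and 3 in the thymic cells. Ptpn11, which encodes SHP2, averaged 1654 against 8460.4 in TFH cells, and the receptor-type Ptprc, which encodes CD45, averaged 10253 against 27141. The thymic genes were Ptpn14, at 649 against 16.1, Ptpn5, at 2979.7 against 173, and Ptpn3. Among 24 RAS and RAP1 regulators, 7 were higher in TFH cells, led by Rapgef4 at 15.7 against 166, and Rapgef3, a cAMP-activated exchange factor for RAP1, alone was higher in the thymic cells, at 147 against 14.5.

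The WNT, NOTCH and TGF-beta pathways held genes that differed in both directions. Of 24 WNT pathway genes, 10 were higher in Id2-/-Id3-/- CD4SP cells and 5 in TFH cells. The ligand gene Wnt10a averaged 5351 in Id2-/-Id3-/- CD4SP cells, 211 in TFH cells and 32.4 in control CD4SP cells, and joined Wnt6 on the thymic side with the receptor genes Fzd6, at 199.6 against 11.0, and Fzd7, at 109.7 against 8.09. The feedback inhibitor genes Axin2 and Rnf43 went the other way, at 238 against 1211 and 35.1 against 558. The median of the list was 0.58 and changed sign when genes under an average of 100 were left out. Of 18 NOTCH pathway genes, 7 were higher in TFH cells, among them Dtx1, Notch1 (log2 ratio -1.51) and Notch2 (-1.34), and 3 in the thymic cells, namely Jag2 (1.94), Dtx2 (1.38) and Notch3 (1.10). Of 25 TGF-beta and BMP genes, 6 were higher in TFH cells, led by the coreceptor gene Tgfbr3 at 32.1 against 720.1, and Eng and Bmpr2 were higher in the thymic cells.

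Genes of cell growth leaned to the thymic cells by small ratios in most members. Of 40 DNA replication genes, 6 were 2-fold or more higher in Id2-/-Id3-/- CD4SP cells and 0 in TFH cells, against 15.2% and 13.2% of all genes. Their median log2 ratio was 0.59. Dut and Rrm2, which supply nucleotides, and Cdc6 and Pole2, which start and carry out replication, had log2 ratios of 1.63, 1.32, 1.61 and 1.78, while Pcna averaged 4314 and 3247. Of 45 mitosis genes, 2 were higher in the thymic cells, with a median of 0.41. Neither the replication nor the mitosis count in the thymic cells stood above the share over all genes, and the lean of both lists lay in their medians. The proliferation marker gene Mki67 averaged 3029 in Id2-/-Id3-/- CD4SP cells, 2353 in TFH cells and 2179 in control CD4SP cells. Of 20 G1 cyclin, CDK and E2F genes, 5 were higher in the thymic cells and 0 in TFH cells, among them E2f1 and Ccne2 at 1.57 and 1.65. Cdkn2a, the INK4A and ARF tumor suppressor locus, averaged 192 against 7.10 in TFH cells and 2.57 in control cells. Its 2 products come from 1 gene average and cannot be told apart. Gadd45g averaged 1159 against 191, whereas Gadd45b, named above, was higher in TFH cells.

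Myc, the growth regulator, averaged 3015 in Id2-/-Id3-/- CD4SP cells, 626 in TFH cells and 1576 in control CD4SP cells. Of 11 MYC network factors, 3 were higher in the thymic cells, among them the MYC antagonist gene Mxd1 at a log2 ratio of 1.24, and 1, Mycl, was higher in TFH cells. Of 36 ribosome biogenesis genes, 8 were higher in the thymic cells and 0 in TFH cells, with a median log2 ratio of 0.68, and Nhp2, Gnl3 and Fbl lay at 1.44, 1.23 and 1.18. Of 40 cytosolic ribosomal protein genes on the list, 27 were higher in the thymic cells, with a median of 1.19, and 1, Rps16, was higher in TFH cells, at 540.2 against 4326. Over all 86 coding ribosomal protein genes that passed the filter, 45 were higher in the thymic cells and 2 in TFH cells, and their summed averages were 1477540 and 734875 normalized counts against 885265 in control CD4SP cells. Of their 97 named pseudogenes, which can take reads from the parent genes, 47 were higher in the thymic cells and 3 in TFH cells. Ribosomal protein genes are mostly short, and the lean of short genes to the thymic cells given above stands beside this result. The longest listed ribosomal protein gene had a summed exon length of 6256 bases. Up to that length, 8625 other coding genes had a median log2 ratio of 0.06, and 1151 of them were higher in the thymic cells. The part of gene length was not tested.

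Metabolic genes varied gene by gene. Of 41 nuclear oxidative phosphorylation subunits, 38 lay within 2-fold and the median log2 ratio was 0.45. Of 24 glycolysis and lactate transport genes, 3 were higher in Id2-/-Id3-/- CD4SP cells and 2 in TFH cells, with Eno3 at 704 against 148 and Aldoc at 16.0 against 116. Hif1a, the oxygen-regulated factor, averaged 2932 in Id2-/-Id3-/- CD4SP cells, 7591 in TFH cells and 1357 in control CD4SP cells. Of 22 HIF1A pathway and hypoxia genes, 4 were higher in the thymic cells, against 15.2% of all genes, 2 were higher in TFH cells and 16 lay within 2-fold, with a median log2 ratio of 0.33 that was 0.04 with a larger average of at least 100. P4ha2, Ndrg1 and Vegfa were among the 4, at log2 ratios of 3.55, 3.06 and 2.75. Of 23 serine, one-carbon and amino acid uptake genes, 6 were higher in the thymic cells and 0 in TFH cells, among them the transporter gene Slc7a5, at 2008 against 491, and the asparagine synthetase gene Asns, at 164 against 26.0. Of 28 cholesterol genes, 3 were higher in the thymic cells, among them the sterol exporter gene Abca1 at 572 against 114. A further 6 were higher in TFH cells, among them the epoxidase gene Sqle at 26.5 against 251.

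**Figure D4:**
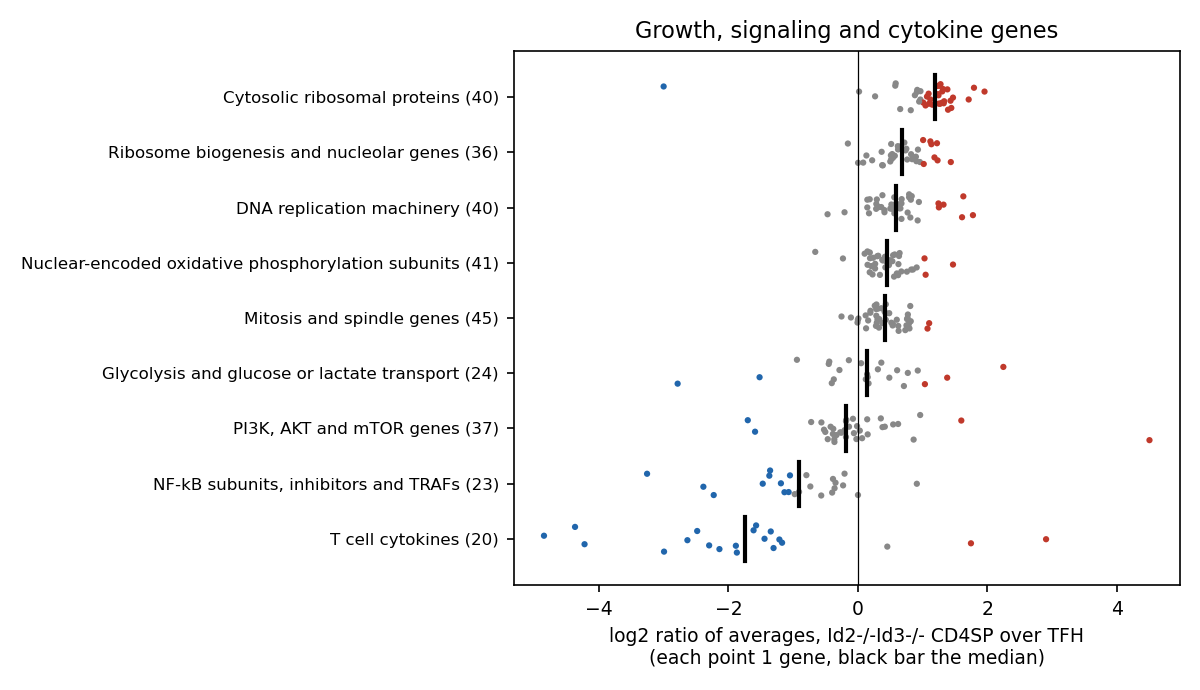
Log2 ratio of Id2-/-Id3-/- CD4SP over TFH averages for the genes of 9 lists, with 1 point per gene, red or blue past 2-fold, and a black bar at the median. The medians run from 1.19 for 40 ribosomal proteins to -1.74 for 20 cytokines, and 33 of 37 PI3K, AKT and mTOR genes lie within 2-fold.

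Survival and death genes differed in a handful of members. Bcl2, which protects thymocytes, averaged 1643 in Id2-/-Id3-/- CD4SP cells, 689 in TFH cells and 3463 in control CD4SP cells. The p53-inducible death genes Bbc3, which encodes PUMA, and Pmaip1, which encodes NOXA, averaged 1041 and 695 in the thymic cells against 234 and 166 in TFH cells. Of 21 p53 target genes, 5 were higher in the thymic cells, with Phlda3, Plk2 and Perp at log2 ratios of 3.03, 2.51 and 2.41, and 1, Trp53inp2, was higher in TFH cells. Mdm2 and Cdkn1a, which are also p53 targets, lay at 0.02 and -0.73.

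Interferon-stimulated genes leaned to the thymic cells and class I presentation genes to TFH cells. Of 42 interferon-stimulated genes, 10 were higher in Id2-/-Id3-/- CD4SP cells and 4 in TFH cells. The oligoadenylate synthetase gene Oas2 averaged 1009 against 67.0 in TFH cells and 1056 in control CD4SP cells, Ifi44 averaged 297, 47.7 and 228, and Bst2 averaged 1932, 536 and 1188. Of 25 class I presentation genes, 7 were higher in TFH cells and 2 in the thymic cells. H2-K1 averaged 21786 against 67054 and H2-Q6 averaged 1484 against 6964, with the caution that class I genes are close copies and share reads, while B2m, their common light chain, averaged 37633 and 37150.0.

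The 39 transcription factors of the study's heat map, chosen by the study on these samples and so no independent evidence of direction, included 9 that were 2-fold or more higher in Id2-/-Id3-/- CD4SP cells, 22 in TFH cells and 8 within 2-fold. Beside those given above, Klf6, a zinc finger factor, averaged 337 against 2806 in TFH cells, Lmo4 averaged 381 against 2186, and Ikzf3, which encodes Aiolos, averaged 1236 against 5282. Cbfa2t3, an ETO-family corepressor, averaged 901 against 378, and Irf5, an interferon regulatory factor, averaged 76.0 against 181. Cebpb was at a like level, at 529 and 539 against 41.3 in control CD4SP cells, and Hes5 had a log2 ratio of 0.47. Over all genes at 1000 or more in both groups, 428 of 2528 lay within a log2 ratio of 0.1 of each other, and Cd3e, a signaling chain of the TCR, was among them at 9475 and 9526.

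Markers of other cells were measured to see what each sort held. Of 17 B cell markers, 12 were higher in TFH cells and 2, Blk and Fcrla, in Id2-/-Id3-/- CD4SP cells, and their summed averages were 7925 normalized counts in the thymic cells, 14778 in TFH cells and 1359 in control CD4SP cells. Most of these sums was Ighm, the immunoglobulin mu gene, at 7408, 10902 and 1183. Pax5, the B cell identity factor, averaged 4.36 against 64.1 in TFH cells, and Cd22, an inhibitory lectin best known from B cells, averaged 17.0 against 1421. Igkc, the kappa light chain, averaged 170.3 against 1669.6. All 47 immunoglobulin variable genes that passed the filter were higher in TFH cells, with a median log2 ratio of -4.24. Those under 10 in the thymic cells passed only through their TFH average, which fixed their direction, so this count is no separate support. The part of B cells in the genes that were higher in TFH cells was not tested.

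Of 14 myeloid and dendritic markers, 9 were higher in TFH cells and 1, Itgam, in the thymic cells, with sums of 2069 and 2999 normalized counts that came mostly from Cst3 and Cd74, while Cd14 and Adgre1 stayed under 2 in TFH cells. Of 7 CD8 T cell markers, 4 were higher in TFH cells, and the sums over the list were 552 in the thymic cells and 2598 in TFH cells. The coreceptor genes Cd8a and Cd8b1 were among the 3 within 2-fold, at log2 ratios of -0.43 and 0.27. Most of the TFH sum came from Runx3, Ccl5 and Eomes, at 1123, 583 and 486. Of 14 regulatory T cell markers, 5 were higher in TFH cells, among them Foxp3, the defining factor, at 280.5 against 1016, and 1, Tnfrsf9, in the thymic cells. Of 9 thymic epithelial and stromal markers that passed the filter, 6 lay within 2-fold. The other 3 were higher in the thymic cells, namely Col1a1, at 377 against 24.7, Epcam, at 593 against 67.0, and Aire. The sums over these markers were alike, at 3110 normalized counts in the thymic cells, 3242 in TFH cells and 2611 in control CD4SP cells. Krt14 and Foxn1 stayed under 4 in both groups compared. Of 12 germinal center B and plasma cell markers, 6 were higher in TFH cells, and of 12 and 13 erythroid and granulocyte markers 2 each reached the filter. The part of these cells in the results was not tested.

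TCR gene use was more uneven in the thymic cells. The share of a gene was its average over the sum of its locus, and the effective number, the exponential of the Shannon index of the shares, gives the number of equally used genes that would be as diverse. The Trbv locus, which encodes Vb regions, had an effective number of 10.1 in Id2-/-Id3-/- CD4SP cells, 15.3 in TFH cells and 15.5 in control CD4SP cells. Trbv13-3 and Trbv13-2 held 25.9% and 25.5% of the Trbv sum in the thymic cells and 5.40% and 15.4% in TFH cells. Trbv3, at 3.11% and 11.7%, and Trbv2, at 2.09% and 5.92%, held more in TFH cells, and Trbv5 held 5.44% and 5.45%. Of 20 Trbv genes that passed the filter, 1 was 2-fold or more higher in the thymic cells and 8 in TFH cells.

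The Traj locus, which encodes Ja segments, had an effective number of 20.0 in Id2-/-Id3-/- CD4SP cells, 38.5 in TFH cells and 39.7 in control CD4SP cells. Traj2 held 19.6% of the Traj sum in the thymic cells and 2.11% in TFH cells, Traj18, the segment joined in the invariant receptor of NKT cells, held 12.3% and 3.47%, and Traj39 held 11.0% and 4.27%. Traj23 led in TFH cells, with 6.93% against 2.91%. These shares rest on sums of only 321 and 401 normalized counts. At the Trbj locus, whose sums were 70.1 and 106, Trbj2-3 held 32.9% and 11.1%. The Trav locus differed less, with effective numbers of 57.7 and 69.9 and of 76.6 in control cells. Reads may be divided among the copies of a TCR gene family, of which Trav has many, and without values per library a share cannot be told to come from all 3 mice or from 1.

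**Figure D5:**
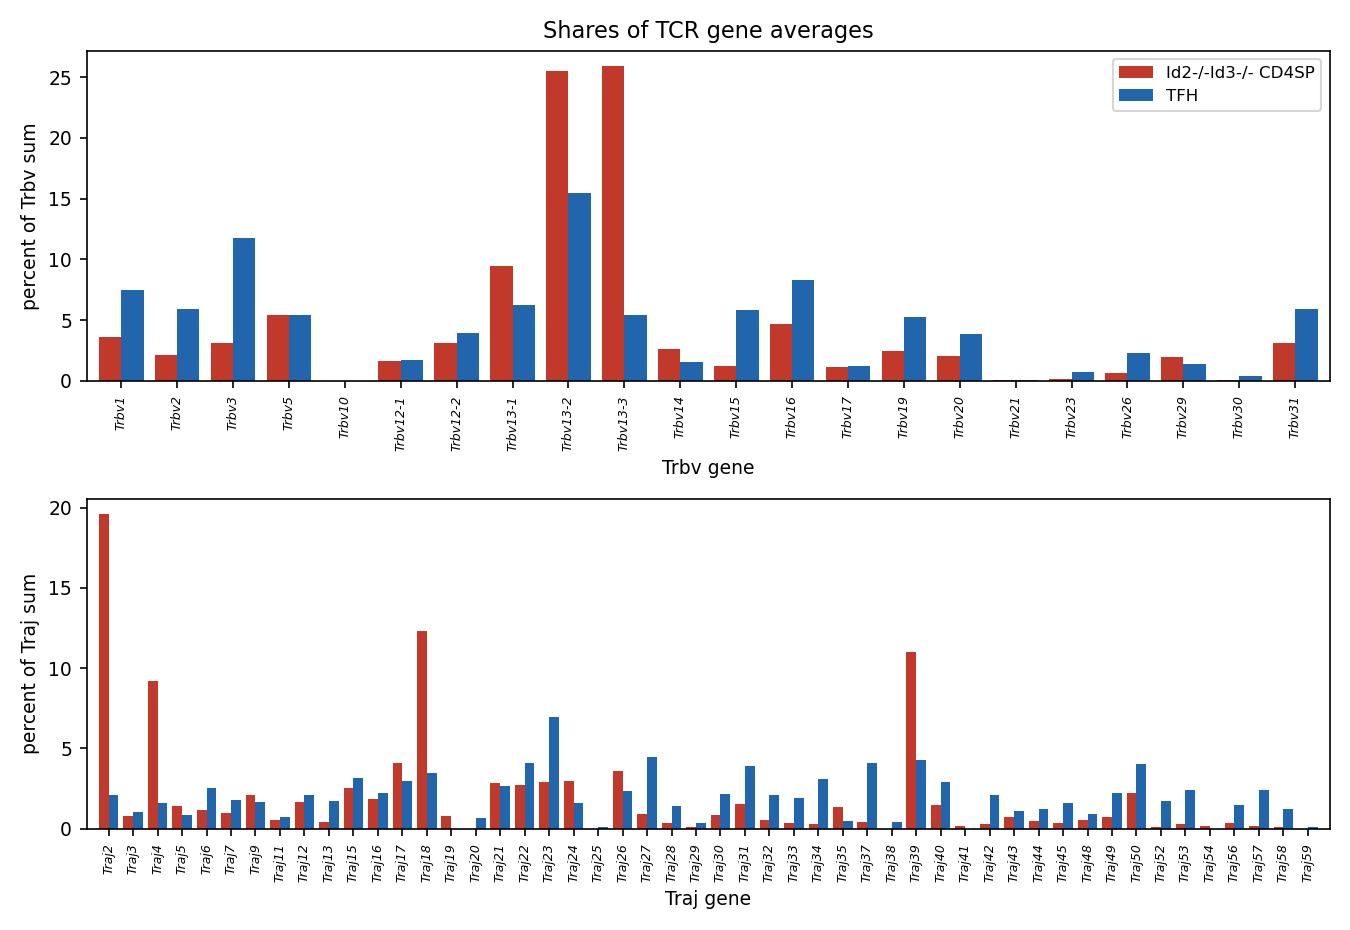
Share of each Trbv gene (upper panel) and each Traj segment (lower panel) in the summed average of its locus, in percent, for Id2-/-Id3-/- CD4SP cells (red) and TFH cells (blue). Bars start at 0 and carry no error, and Trbv13-3 stands at 25.9% and 5.40% and Traj2 at 19.6% and 2.11%.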

How the data were processed

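RNA was sequenced in 20 libraries of 5 groups of mouse T cells, and the 3 libraries of Id2-/-Id3-/- CD4SP thymocytes and the 3 of splenic TFH cells were compared. Strand-specific libraries were processed by the authors in Array Studio (OSA alignment to mm10, RSEM counting, DESeq normalization). The sources used here do not name the versions. The signal deposited by the authors was 1 average of DESeq-normalized RSEM counts per group and gene. The study's methods state that genes under 10 in all samples were removed, but the deposited table still held 5285 genes listed at 0 in all 5 averages. Values per library used here numbered 0, so no test, error or depth could be given, and the planned fit was replaced by the description planned for averages. Columns of signed fold changes, p-values and false discovery rates for 4 comparisons with control hold the study's own tests and were not used.

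Gene symbols and positions came from GENCODE annotation of the same build, and 37607 of 39179 Ensembl identifiers were paired with a symbol. Log2 ratios were taken after adding 1 to each average, for genes whose larger average was 10 or more. The calculations were made with Python 3.11.15, numpy 2.4.6 and pandas 2.3.3 and were tested on simulated averages. Counts past 2-fold and medians were given for 55 gene lists beside all genes. The members and lists were chosen with earlier results of these data known. The named genes were the 15 largest ratios each way with an average of 100 or more in the higher group, leaving out TCR and immunoglobulin segments, pseudogenes and unnamed or repeat-like gene models, the largest ratios of each list, the study's heat map factors and genes at like levels. Other list members named beside them were chosen after their values were seen. Promoters came from RefSeq for GRCm38.p6. Alternatives were another added count, filter, scaling, fold and set of genes, and for TCR genes another diversity index and summed families. Some listed genes are not reported here.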

Additional observations from a re-analysis of the deposited data

How the results depend on the processing

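No paired analysis was possible because the deposited columns are group averages, and for the same reason neither the leave-one-out alternatives nor the fit with a replicate block was run. The genes 2-fold or more higher in Id2-/-Id3-/- CD4SP cells numbered 2221, and 1058 with a larger average of at least 100, 5976 without a filter and 883 at 4-fold. Those higher in TFH cells numbered 1935, and 1018, 3224 and 658 under the same settings. Without a filter 65% of the genes past 2-fold were higher in the thymic cells, against 53.4% as reported and 48.2% to 57.3% under the other settings. Trbv use in the thymic cells had an inverse Simpson index of 6.51 and an effective number of 5.27 with families summed. Trav had effective numbers of families of 11.0 in the thymic and 11.8 in TFH cells and an inverse Simpson index of 36.0 in the thymic cells, and Traj had an index of 11.9 there. The cause of these differences was not tested beyond the construction of each setting, and 27 of the other values in these comparisons moved by less than 1.5 times. Under the settings tried, 13 values of list medians moved by 0.5 or more, among them those of immature thymocyte genes (2.64, and 1.63 with 10 added to each average), NK receptors (-2.15, and -1.24 with a larger average of at least 100), CD8 markers (-1.81, and -3.24) and germinal center markers (-1.26, and -2.29 under that filter or -0.72 with 10 added). The median of the WNT list (-0.47 with a larger average of at least 100) and that of the MYC network list changed sign under that filter. Of 1026 listed or named genes, 28 no longer passed 2-fold with 10 added to each average and 20 with equal column sums, and under these settings, centring and the stricter filter 0 of those past 2-fold turned sign.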

Other observations

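Enzymes of DNA methylation and Polycomb repression lay at like levels in both populations. Of 26 genes, 2 were 2-fold or more higher in Id2-/-Id3-/- CD4SP cells, 2 were higher in TFH cells and the median log2 ratio was -0.0027. Uhrf1, which brings the maintenance methyltransferase to replicated DNA, and Cbx2, a Polycomb reader, had log2 ratios of 1.21 and 1.28, while the Polycomb reader gene Cbx7 and the demethylase gene Kdm6a had -1.56 and -1.09. Ezh2, Dnmt1 and Tet2 lay at -0.31, 0.35 and -0.30.

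Gene classes differed in their lean. Processed pseudogenes numbered 513 and had a median log2 ratio of 0.68, with 204 higher in the thymic cells and 68 in TFH cells, against a median of -0.0079 over 12510 protein-coding genes. Of 9 immunoglobulin constant genes, 7 were higher in TFH cells and 1 in the thymic cells. That gene was Ighe, the epsilon constant gene, which averaged 44.4 normalized counts in the thymic cells and was listed at 0 in TFH cells. Among Trav genes, 18 of 95 that passed the filter were higher in the thymic cells and 40 in TFH cells.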
